A study of Homo sapiens with 6 samples.

Results

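Of 169433 merged regions bound by estrogen receptor α (ERα), 21834 (12.9%) lay in gene deserts. Overlapping peaks of 6 lists from chromosomes 1 to 22 were merged where they shared at least 1 bp, and a region was taken as a gene-desert region when its midpoint was over 200 kb from the span of every protein-coding gene. The choice used position only and no signal. ERα was mapped by chromatin immunoprecipitation and sequencing in MDA-MB-453, an established human breast cancer line that has androgen receptor and lacks functional endogenous ERα. Every culture carried an ERα transgene that doxycycline switches on, and all received 2 µg/mL of it for 2 days in 10% fetal bovine serum. The groups were Y537S with 1 nM estradiol (E2), Y537S without E2, K303R with E2, K303R without E2, wild-type receptor (WT) with E2 and WT without E2. The precipitating antibody was D8H8. Each group has 1 library, each receptor is represented by 1 line, and nothing below has a replicate check. Whether the serum was free of hormones is not stated in the labels, so the cultures without E2 cannot be taken as hormone-free.

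Gene deserts are long stretches of the genome without protein-coding genes. Many flank genes that control development and hold enhancers that act on those genes over long distances, while others hold few known elements. ERα is a nuclear receptor that binds DNA as a dimer, most strongly at the estrogen response element (ERE), a palindrome made of a pair of inverted arms, and mostly at enhancers rather than at promoters. Y537S changes the ligand-binding domain and makes the receptor active without hormone. K303R lies in the hinge between the DNA-binding and ligand-binding domains.

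The gene-desert regions lay a median of 407 kb from the nearest protein-coding gene, 8233 of them over 500 kb and 2044 over 1000 kb away. They fell into 728 intervals between neighbouring protein-coding genes, with a median of 19 regions per interval. Of the gene-desert regions, 29.8% had their midpoint inside the span of a long noncoding RNA (lncRNA) gene, against 14.5% of all other regions, and 69.2% lay in no RefSeq gene of any kind. Only 10 lay inside immune gene segments, which RefSeq does not class as protein-coding. Sequence beyond 200 kb from protein-coding genes made up 23.6% of the span between the outermost genes. It held 32.1 merged regions per Mb, against 67.3 per Mb elsewhere, with assembly gaps counted in both lengths. The region just inside the limit, 200028 bp from USP25, had 0 and 9 summit fragments in Y537S, 26 and 25 in K303R and 12 and 17 in WT, each with and then without E2. The one just outside, 199991 bp from SLC10A2, had 12 and 11, 0 and 12, and 21 and 20 in the same libraries. A 0 means that the list has no peak there. Summit fragments are the sequenced fragments that cover the highest point of a peak, recovered from the authors' fold enrichment and p-value.

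Some gene-desert regions covered the start of a lncRNA gene, and their sequence shows the DNA that lies under such a peak. In all, 146 gene-desert regions overlapped 152 RefSeq promoter windows, which run from 250 bases before to 50 bases after a gene start, and all 152 belong to lncRNA genes. The 4 windows below were picked after their values were seen: the first and second hold a full ERE, the third belongs to a region that was higher with E2 in WT and K303R, and the fourth belongs to one that was lower in Y537S than in WT without E2. Capitals mark matches to the motifs spelled out in the next paragraph, and each window is read 5′ to 3′ on its gene's strand (RefSeq, GRCh38.p14).
LINC02465, chr4:129771369-129771668, plus strand: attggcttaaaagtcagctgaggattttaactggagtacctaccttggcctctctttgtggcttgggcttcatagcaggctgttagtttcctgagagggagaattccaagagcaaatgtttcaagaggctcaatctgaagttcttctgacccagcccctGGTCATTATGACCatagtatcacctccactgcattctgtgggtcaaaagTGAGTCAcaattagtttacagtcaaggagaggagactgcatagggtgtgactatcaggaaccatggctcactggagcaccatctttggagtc
LINC02350, chr12:126425896-126426195, plus strand: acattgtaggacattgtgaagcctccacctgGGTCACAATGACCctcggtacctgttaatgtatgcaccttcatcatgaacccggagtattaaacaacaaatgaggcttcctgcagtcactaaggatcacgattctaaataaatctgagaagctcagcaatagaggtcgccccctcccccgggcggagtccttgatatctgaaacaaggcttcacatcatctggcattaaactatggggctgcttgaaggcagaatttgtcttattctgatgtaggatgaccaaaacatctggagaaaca
LINC00299, chr2:8328370-8328669, minus strand: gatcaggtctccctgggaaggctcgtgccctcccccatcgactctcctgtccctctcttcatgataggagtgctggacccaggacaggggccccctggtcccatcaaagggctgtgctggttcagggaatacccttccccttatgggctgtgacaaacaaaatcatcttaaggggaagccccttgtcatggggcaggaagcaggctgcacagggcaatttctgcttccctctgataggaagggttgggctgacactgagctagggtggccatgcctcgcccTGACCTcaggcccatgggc
LNCPOIR, chr6:114545271-114545570, minus strand: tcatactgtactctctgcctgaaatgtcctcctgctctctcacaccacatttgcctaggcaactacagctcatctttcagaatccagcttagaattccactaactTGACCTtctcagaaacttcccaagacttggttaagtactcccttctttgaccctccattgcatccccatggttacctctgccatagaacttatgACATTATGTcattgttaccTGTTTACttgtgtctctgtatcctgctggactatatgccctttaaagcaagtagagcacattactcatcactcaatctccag

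Motifs were searched on both strands of the promoter windows. A full ERE, GGTCA and TGACC with 3 bases of any kind between them, was in 3 of the 152 windows under a gene-desert region (1.97%), in 0.145% of 1380 lncRNA windows in gene deserts that overlapped no region, and in 0.0593% of all 33725 windows. The windows of LINC02465 and LINC02466 overlap and share 1 of these palindromes, so the 3 windows hold 2 separate EREs. A single ERE arm, AGGTCA, which can overlap a full ERE, was in 30.9% of the windows under a region, 17.6% of the desert windows with no region and 13.8% of all. The forkhead motif TGTTTAC was in 11.8%, 5.43% and 3.45%, and the AP-1 motif TGANTCA in 18.4%, 13.6% and 7.67%. The GATA motif AGATAA was in 18.4%, 22.5% and 10.4%, and the androgen receptor core ACANNNTGT in 9.21%, 10.3% and 5.36%. The grainyhead motif AACCNGGTT was in 0%, 0.290% and 0.231%, and the CTCF core (CCAC, any base, AG, any 2 bases, GGC) in 0.658%, 0.290% and 0.635%. These shares are descriptions of promoter windows, which are a small and particular subset of the gene-desert regions. Base composition also sets how often short motifs occur, and its part was not tested.

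The 4 printed windows lay under peaks of moderate to high signal. At LINC02465, 655 kb from C4orf33, the region had 203 and 189 fragments in Y537S, 161 and 154 in K303R and 201 and 184 in WT, each with and then without E2, and the summits of all 6 peaks lay inside the window with the ERE. The ratios of mutant to WT ran from 0.877 to 1.11, with intervals that all held 1. At LINC02350 the region had 81 and 87 fragments in Y537S, 109 and 63 in K303R and 153 and 119 in WT. With E2, Y537S stood at 0.502 of WT there (interval 0.378 to 0.661). At LINC00299, a lncRNA gene beside the differentiation inhibitor ID2, the region had 185 and 165 fragments in Y537S, 115 and 49 in K303R and 137 and 82 in WT. The count with E2 was higher than that without E2 in both K303R and WT, while the Y537S libraries stood close together. In only 2 of the 6 lists did the summit lie inside the printed window. At LNCPOIR, 202 kb from HS3ST5, the region had 94 and 72 fragments in Y537S, 148 and 137 in K303R and 126 and 149 in WT. Both Y537S counts lay below the 4 others, and without E2 the ratio of Y537S to WT was 0.507 (0.377 to 0.676).

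Ratios in this text are centred on the median of all 32800 well-covered regions, those in all 6 lists with a mean of at least 50 summit fragments. Printed intervals are exact 95% intervals and cover counting error only. To be called higher or lower, a region needed a ratio past 1.5-fold and an exact 99.9% interval without 1. Such a call compares 2 libraries and not 2 conditions. Of the gene-desert regions, 3033 (13.9%) were well covered, against 20.2% of all other regions. A further 3628 were in all lists but under the minimum, and 15173 were missing from at least 1 list, so ratios describe the stronger and more constant gene-desert regions only.

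The lists held 109230 and 113714 peaks in Y537S, 103833 and 102848 in K303R and 117710 and 121641 in WT, each with and then without E2. Total reads per library are not stated in these sources. Peak names in the Y537S lists carry a date-like tag unlike that in the K303R and WT lists, so for Y537S against WT the receptor, the line and whatever the tag stands for cannot be told apart. For K303R against WT the receptor and the line cannot be told apart.

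Gene-desert regions were listed about as often as all other regions in WT, less often in Y537S and least often in K303R. In the Y537S lists 56.5% of the gene-desert regions were present with E2 and 60.2% without, against 64.3% and 66.7% of all other regions. In the K303R lists the shares were 49.8% with E2 and 50.005% without, against 61.7% and 61.0%. In the WT lists they were 68.4% with E2 and 71.7% without, against 68.1% and 70.6%. The difference from all other regions was therefore −7.85 and −6.54 percentage points in Y537S, −11.8 and −11.02 in K303R and 0.325 and 1.16 in WT. Over the 6 libraries together the difference was below 0 in 4 of 6 and the exact 2-sided sign-flip test gave p = 0.125 (smallest possible 0.03125). Over the 3 lines it gave p = 0.5 (exact, smallest possible 0.25). Without the WT line the mean difference was −9.31 percentage points, without the Y537S line −5.34 and without the K303R line −3.22, against −5.96 with all 3. Exchanging the lines among the libraries of a treatment gave an exact permutation p of 0.167 for the difference between lines, the smallest that 6 arrangements allow. Merged regions per Mb in deserts, relative to elsewhere, were 0.419 and 0.431 in Y537S, 0.385 and 0.391 in K303R and 0.479 and 0.485 in WT. These ratios come from nearly the same listings over fixed lengths, so their order restates that of the shares.

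**Figure D1:**
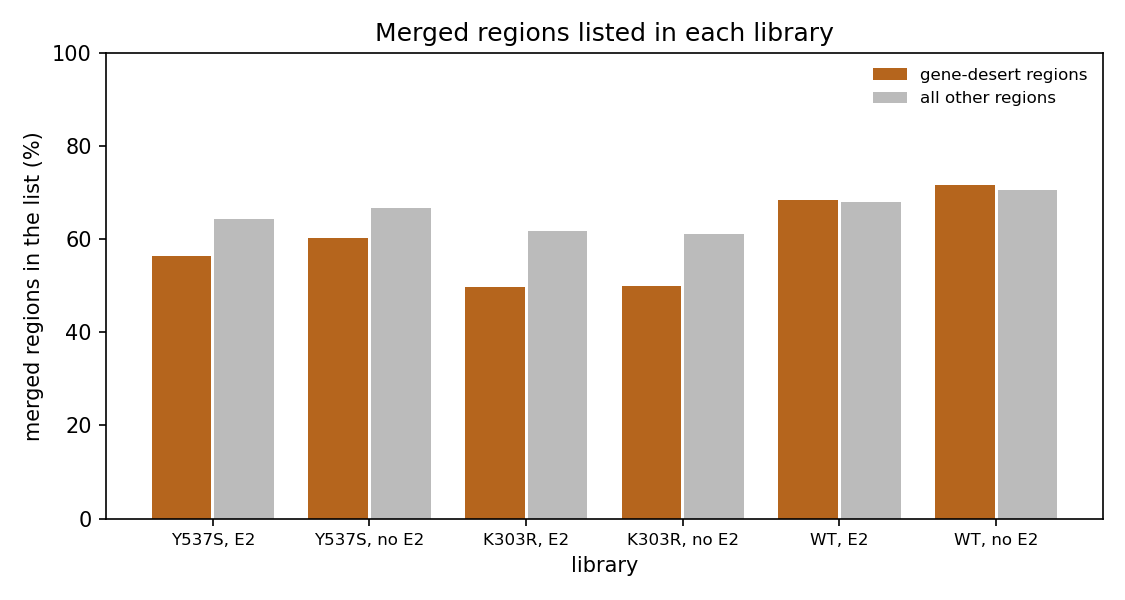
Share of merged regions present in each list (y axis, %), for the 21834 gene-desert regions (brown) and the 147599 other regions (grey), by library (x axis). The bars of a pair are nearly level in the WT libraries, while the brown bar is lower in the Y537S and K303R libraries.

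Peaks in gene deserts had fewer summit fragments than other peaks in every library. The median was 24 and 20 fragments in Y537S, 21 and 20 in K303R and 23 and 23 in WT for gene-desert peaks, against 31 and 26, 27 and 24, and 28 and 28 for other peaks, each with and then without E2. The log2 difference averaged −0.32 and was below 0 in 6 of 6 libraries (exact 2-sided sign-flip p = 0.03125, the smallest possible), and in 3 of 3 lines (exact p = 0.25, the smallest possible). The local background under the peaks was also lower in gene deserts, by −0.54 in log2 on average. It was lower in 6 of 6 libraries (exact 2-sided sign-flip p = 0.03125) and in 3 of 3 lines (exact p = 0.25, the smallest possible). The deposited fold enrichment, which divides the summit by that background, was not lower. Its median differed by 0.018 in log2 (exact sign-flip p = 0.0625 over libraries and 0.25 over lines). Gene-desert regions made up 9.13% and 9.28% of the strongest 10000 peaks in Y537S, 7.38% and 7.87% in K303R and 9.92% and 10.1% in WT, each with and then without E2. Of all peaks they made up 11.4% and 11.7% in Y537S, 10.6% and 10.7% in K303R and 12.8% and 13.0% in WT.

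In gene deserts 6661 regions (30.5%) were in all 6 lists, against 40.1% of all other regions, and 5459 (25.002%) were in 1 list only, against 21.1%. Lists of the same receptor overlapped most, in gene deserts as elsewhere. The Jaccard index, the regions in both lists over those in either, was 0.712 for the Y537S pair, 0.648 for the K303R pair and 0.695 for the WT pair, which average 0.685, while the remaining pairs average 0.562 (exact permutation p = 0.0667, the smallest of 15 ways to pair the libraries). At all other regions these averages were 0.726 and 0.646, with the same exact p. The lowest value was 0.502, between Y537S and K303R without E2. Both WT lists and no other held 877 gene-desert regions, 4.02% of them, against 1.90% of all other regions. Both K303R lists alone were missing 1137 gene-desert regions (5.21%, against 2.78%), and both Y537S lists alone were missing 536 (2.45%, against 2.03%). Regions in both Y537S lists only numbered 505 (2.31%, against 2.34%), and those in both K303R lists only 279 (1.28%, against 1.53%). Only 12 gene-desert regions (0.0550%, against 0.297%) were in all 4 mutant lists and neither WT list. The 3 lists with E2 alone shared 26 regions (0.119%, against 0.165%), and the 3 without E2 alone shared 48 (0.220%, against 0.25%).

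These classes held mostly weak peaks, with a few of clear signal. By −log10 p, the top region missing from both K303R lists, inside the lncRNA gene LINC02751 and 322 kb from INSC, had 73 and 83 fragments in Y537S and 43 and 26 in WT, with and without E2 (chr11:15590985-15591531). The second by that order, 1187 kb from CELF2 and in the interval that starts at GATA3, a luminal transcription factor gene, had 64 and 83 in Y537S and 58 and 46 in WT. By the same order, the top region missing from both Y537S lists, 410 kb from the plexin gene PLXNA2, had 35 and 55 fragments in K303R and 75 and 69 in WT (chr1:208654194-208654764). Other regions of these classes had more fragments, and 3 of them are given here after their values were seen. Missing from both K303R lists, chr3:59450008-59450434 had 78 and 59 fragments in Y537S and 94 and 78 in WT, with and without E2. Missing from both Y537S lists, chr1:177619106-177619472 had 55 and 59 in K303R and 104 and 109 in WT. Also missing from both Y537S lists, chr8:128428045-128428595, inside the lncRNA gene LINC00824, had 99 and 112 in K303R and 32 and 31 in WT. Each of these 3 lies beside a region with more fragments that is in all 6 lists (chr3:59447092-59447894, chr1:177620514-177621203 and chr8:128429582-128430158), and the part of that neighbour in their listing was not tested. In both K303R lists only was a region 217 kb from NRIP1, a corepressor gene that estrogen receptor regulates, with 24 and 29 fragments. In the 3 lists with E2 only were 2 neighbouring regions near the homeobox gene IRX2, 345 kb and 336 kb away. The nearer had 11 fragments in Y537S, 10 in K303R and 23 in WT, and the farther 11, 10 and 26.

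Even at equal WT signal, weak gene-desert regions were listed less often in the mutants than other weak regions. Among regions with 20 to 39 fragments in WT without E2, 78.7% of 3976 gene-desert regions were in the Y537S list without E2, against 82.8% of 26635 other regions. In the K303R list without E2 the shares were 65.3% and 77.7%, and in the WT list with E2 they were 93.6% and 91.8%. Among regions with 6 to 19 fragments the shares were 41.9% and 52.2% in Y537S, 30.9% and 45.9% in K303R, and 57.9% and 59.2% in WT with E2. With 80 or more fragments the shares were 99.5% to 100% for both kinds in each of these lists. When regions were matched on WT with E2 instead, the shares at 20 to 39 fragments were 80.6% against 85.0% in Y537S and 68.5% against 81.7% in K303R, both with E2. No set was picked by a mutant library, and local background was not matched.

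**Figure D2:**
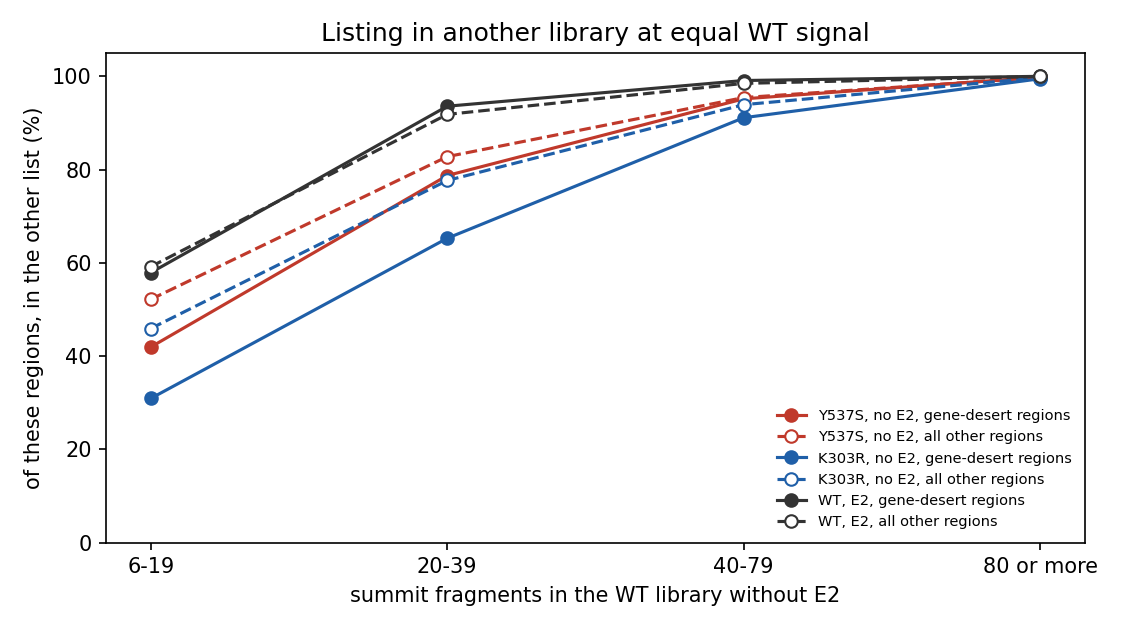
Share of regions present in the Y537S list without E2 (red), the K303R list without E2 (blue) and the WT list with E2 (black), on the y axis (%), by summit fragments in WT without E2 (x axis). Filled points and solid lines are gene-desert regions and open points and dashed lines all other regions. In the 2 classes under 40 fragments the solid line lies below the dashed one in both mutants, widest in K303R, and the 2 lines nearly meet in WT.

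The listed share fell with distance from genes in the mutants and changed little in WT. In K303R with E2 it was 62.3% inside genes, 52.7% at 200 to 500 kb, 45.8% at 500 to 1000 kb and 43.0% beyond 1000 kb. In Y537S with E2 the same classes had 64.7%, 58.1%, 53.9% and 53.6%. In WT with E2 they had 67.8%, 69.0%, 67.8% and 66.3%. The classes just inside and outside the limit were close, with 54.5% listed at 200 to 250 kb and 56.1% at 150 to 200 kb in K303R with E2.

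K303R had less signal than WT at well-covered gene-desert regions. The median centred log2 ratio of K303R to WT was −0.34 with E2 (quartiles −0.78 and 0.01) and −0.31 without E2 (−0.70 and 0.04). Relative to all other well-covered regions the median lay at −0.37 with E2 and −0.34 without. With E2, 709 gene-desert regions (23.4%) were lower in K303R, against 9.03% of all well-covered regions, and 42 (1.38%) were higher, against 5.22%. Without E2, 538 (17.7%) were lower, against 6.84% of all, and 74 (2.44%) were higher, against 4.54%. Lower in both treatments were 383 (12.6%, against 4.22% of all), and higher in both were 26 (0.857%, against 2.09%). With ratios scaled by the lowest local background, 36 (1.19%) were higher and 851 (28.1%) lower with E2, against 3.59% and 11.4% of all. Without E2, 11 (0.363%) were then higher and 1351 (44.5%) lower, against 0.652% and 22.5% of all, so that scaling raised the share called lower among all regions too. Centred within 5 Mb windows, 102 (3.36%) were higher and 464 (15.3%) lower with E2, against 4.39% and 6.82% of all. Without E2, 115 (3.79%) were higher, near the 3.89% of all, and 344 (11.3%) were lower, against 5.28%.

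Y537S was lower than WT by less, and its direction depended on the scaling. The median log2 ratio was −0.12 with E2 (quartiles −0.43 and 0.16) and −0.13 without (−0.46 and 0.17), or −0.14 both with and without E2 relative to all other regions. With E2, 360 gene-desert regions (11.9%) were lower in Y537S, against 6.8% of all well-covered regions, and 113 (3.73%) were higher, against 7.73%. Without E2, 381 (12.6%) were lower, against 7.48%, and 149 (4.91%) were higher, against 9.63%. Lower in both treatments were 215 (7.09%, against 3.79%), and higher in both were 64 (2.11%, against 4.41%). Scaling by the lowest local background moved the median of all well-covered regions to 0.13 with E2 and 0.22 without. The gene-desert medians were then 0.00 and 0.09, with 198 (6.53%) higher and 264 (8.70%) lower with E2, against 12% and 4.44% of all. Without E2, 314 (10.4%) were then higher and 186 (6.13%) lower, against 17.6% and 3.39% of all. The gap to all other regions does not depend on that scaling.

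The ratio of K303R to WT fell with distance from genes within the deserts too, and that of Y537S fell less evenly. For K303R with E2 the median log2 ratio was 0.05 inside genes, 0.13 within 10 kb of one, −0.29 at 200 to 500 kb, −0.48 at 500 to 1000 kb and −0.49 beyond 1000 kb. Without E2 these classes had 0.04, 0.13, −0.27, −0.41 and −0.43. For Y537S with E2 they had 0.04, 0.05, −0.11, −0.12 and −0.23. On each of the 22 chromosomes the gene-desert median lay below that of the other regions, for both mutants and both treatments. The gap ran from −0.57 to −0.18 for K303R with E2, −0.58 to −0.14 without, −0.45 to −0.03 for Y537S with E2 and −0.36 to −0.02 without. The −0.45, on chromosome 19, rests on 20 well-covered gene-desert regions. Within 5 Mb windows the gap was smaller, at −0.19 and −0.17 for K303R and −0.074 and −0.076 for Y537S, with and without E2. Gene-desert regions inside and outside lncRNA genes had like medians, at −0.33 and −0.35 for K303R with E2.

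**Figure D3:**
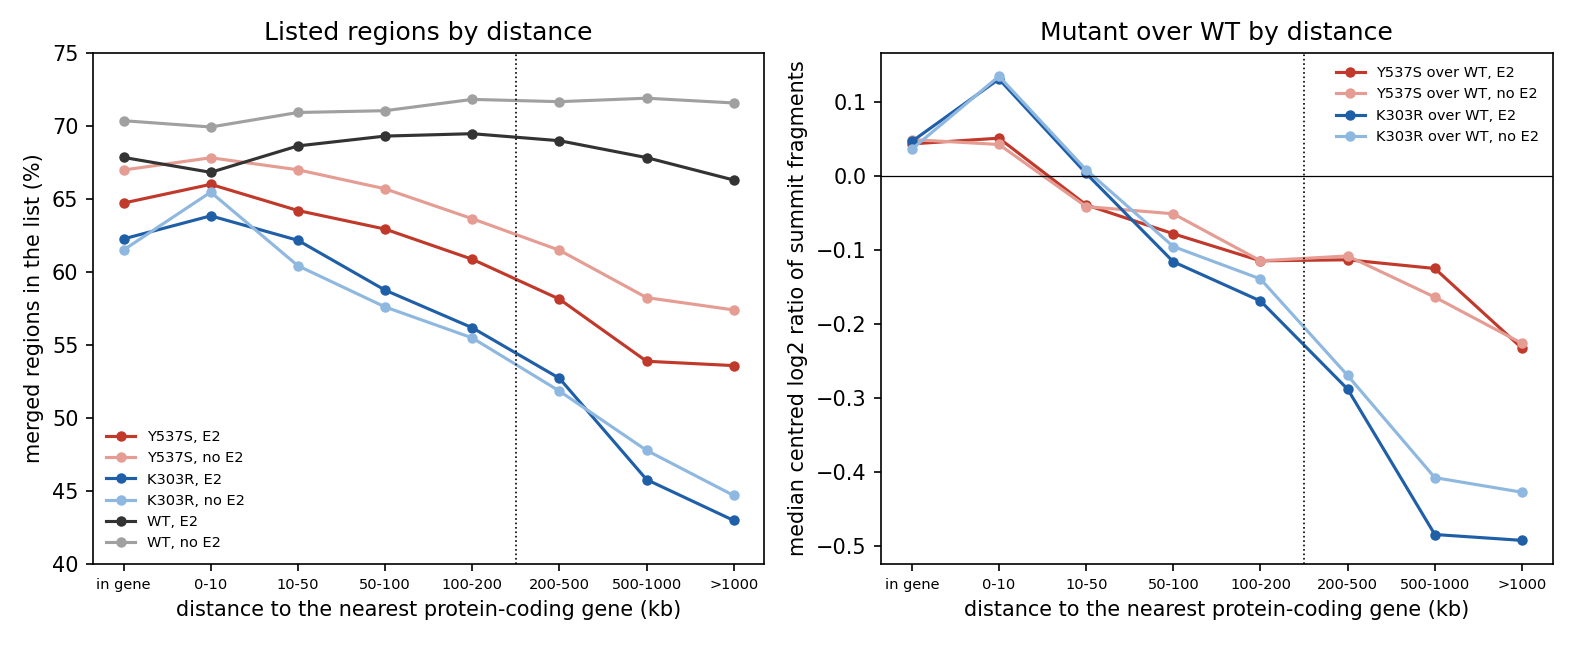
Left, share of merged regions in each list (y axis, %, starting at 40) by distance to the nearest protein-coding gene (x axis, kb). Right, median centred log2 ratio of summit fragments, mutant over WT, over the well-covered regions of each class; the dotted line marks 200 kb. From 10 kb outward the mutant lines run downward in both panels, steepest for K303R and nearly level for Y537S at 100 to 500 kb in the right panel, while the WT lines of the left panel stay between 66.3% and 71.9%.

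**Figure D4:**
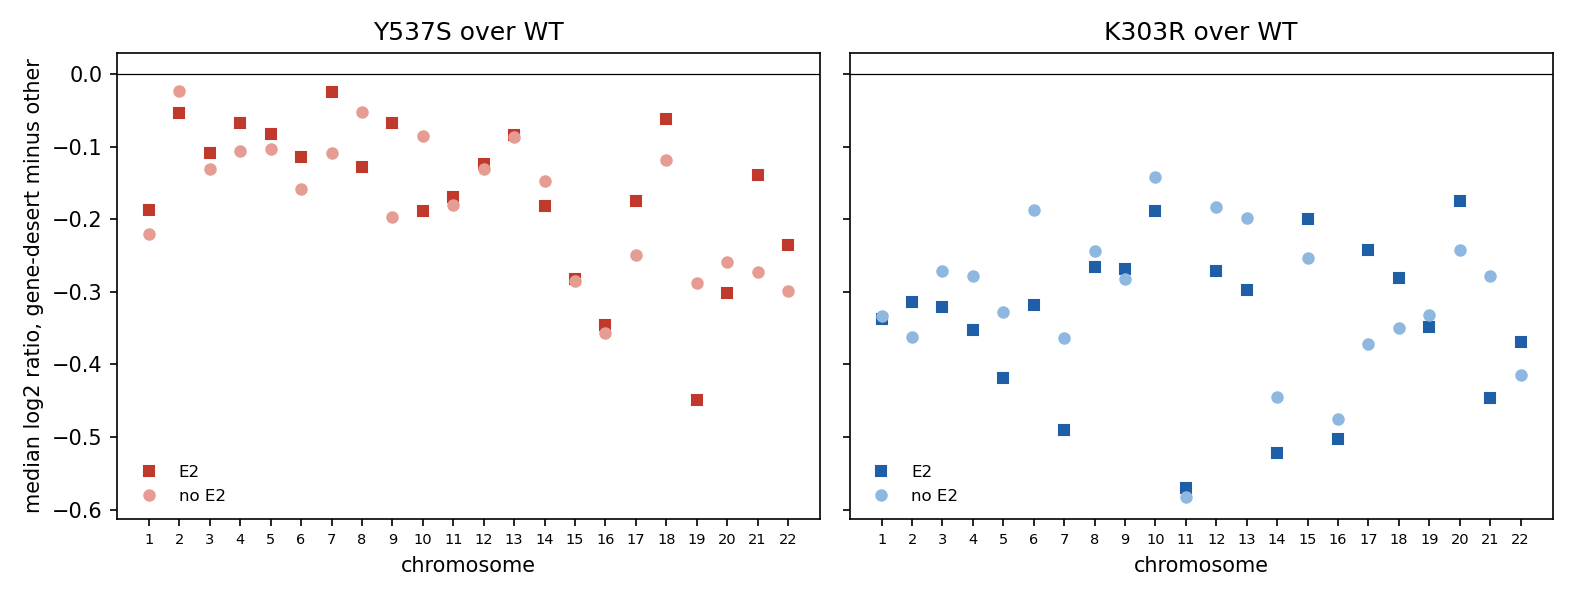
Median log2 ratio of mutant to WT at gene-desert regions minus that at other well-covered regions (y axis), by chromosome (x axis), for Y537S (left) and K303R (right), with E2 (squares) and without (circles). Every point lies below 0. The points rest on 18 (chromosome 17) to 366 (chromosome 2) well-covered gene-desert regions.

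The local background differed between libraries in the same direction as the summits. At the well-covered gene-desert regions the log2 background ratio, relative to other regions, was −0.40 and −0.33 for K303R over WT and −0.20 and −0.20 for Y537S over WT, with and without E2. The deposited fold enrichment had gaps of −0.04 and −0.07 for K303R and 0.02 and 0.01 for Y537S. Whether background and summit are separate measures here was not tested. Their Spearman correlation across well-covered regions, which share each library's depth, was 0.653 to 0.742 per library, and at most 1.41% of regions were at the library's lowest background. The part of background, copy number and base composition in the gaps was not tested, and no control library was used here.

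The 10 strongest gene-desert regions, taken by mean fragments among those in all 6 lists, had 243 to 395 fragments in every library. That choice favours regions that are strong throughout. The one with most fragments lay 399 kb from MYC, a growth-controlling transcription factor gene, at chr8:128141655-128142581, and had 267 and 254 fragments in Y537S, 395 and 379 in K303R and 323 and 320 in WT, each with and then without E2. The K303R counts were the highest and the Y537S counts the lowest, and without E2 the ratio of K303R to WT was 1.57 (1.35 to 1.83). The second lay 311 kb from LRFN5, a synaptic adhesion gene, at chr14:42214810-42215578, with 318 and 316 fragments in Y537S, 311 and 266 in K303R and 341 and 344 in WT. There the ratio of K303R to WT was 0.999 (0.854 to 1.17) with E2 and 1.03 (0.871 to 1.21) without. A region 401 kb from SOX2, a stem cell transcription factor gene, at chr3:182115021-182115897, had 278 and 250 fragments in Y537S, 309 and 279 in K303R and 316 and 330 in WT. A region 781 kb from TENM4, a cell-surface teneurin gene, at chr11:80221406-80222322, had 306 and 297, 247 and 243, and 312 and 336 in the same libraries. Among the 10 strongest, 3 lay on chromosome 8, and 2 of these, near MYC and 1109 kb from CSMD3, were called higher in K303R without E2. None of the 10 was called for E2 or for Y537S.

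**Figure D5:**
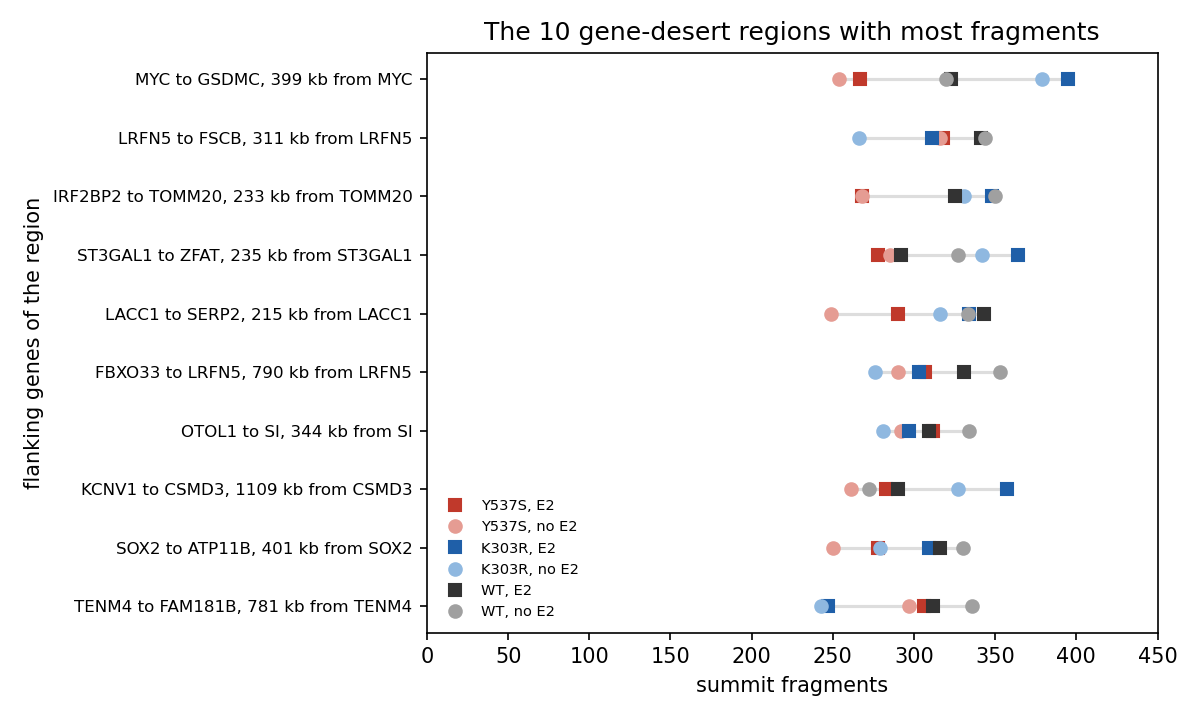
Summit fragments (x axis) of the 10 gene-desert regions with the highest mean over the libraries (y axis, by flanking genes). Squares are libraries with E2 and circles those without; red is Y537S, blue K303R and grey to black WT. All values lie between 243 and 395, and the blue points are rightmost at the 3 chromosome 8 regions (MYC, ST3GAL1 and CSMD3).

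The lowest ratio of K303R to WT with E2 was 993 kb from the adhesion receptor gene ADGRL2, at chr1:80313205-80313889. It had 10 and 23 fragments in K303R and 97 and 120 in WT, with and without E2 (0.113, 0.0525 to 0.217, and 0.254, 0.155 to 0.400), and Y537S had 39 and 36. At the next 2 regions described here the Y537S counts were near those of WT. At chr5:27435899-27436723, 398 kb from the cadherin gene CDH9, the counts were 13 and 35 in K303R and 108 and 88 in WT, with and without E2, while Y537S had 114 and 87. The ratio of K303R to WT was 0.132 (0.0680 to 0.235) with E2 and 0.528 (0.346 to 0.789) without, and only the ratio with E2 was called. At chr16:59405073-59405583, 671 kb from GOT2, the counts were 17 and 11 in K303R and 78 and 89 in WT (0.239, 0.132 to 0.407, and 0.164, 0.0791 to 0.308), while Y537S had 89 and 72. Chromosome 8 held 13 of the 42 regions called higher in K303R with E2 and 25 of the 74 without, but 8.74% of the well-covered gene-desert regions. This was not particular to the deserts of that chromosome: the median log2 ratio of K303R to WT was −0.10 with E2 and −0.05 without at its gene-desert regions, and 0.17 and 0.20 at its other regions. The highest ratio was 315 kb from TSNARE1 (chr8:141896894-141897669), with 165 and 154 fragments in K303R and 59 and 47 in WT (3.06, 2.26 to 4.196, and 4.35, 3.12 to 6.17). Outside chromosome 8, a region inside the lncRNA gene DIRC3, 454 kb from TNP1 (chr2:217314040-217314695), had 115 and 97 in K303R and 60 and 41 in WT (2.10, 1.52 to 2.92, and 3.14, 2.16 to 4.64).

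The region with the largest Y537S gain was 305 kb from RAB6C, at chr2:129674057-129674740. It had 135 and 108 fragments in Y537S and 31 and 18 in WT, with and without E2 (4.13, 2.78 to 6.31, and 6.30, 3.80 to 11.02), and K303R had 36 and 12. A region 954 kb from the cadherin gene CDH6 (chr5:30239768-30240274) had 167 and 165 in Y537S and 68 and 40 in WT (2.33, 1.74 to 3.13, and 4.33, 3.05 to 6.28). The lowest ratio of Y537S to WT without E2 was 591 kb from PKDCC (chr2:41456960-41457578), with 22 and 16 fragments in Y537S and 108 and 110 in WT (0.193, 0.116 to 0.307, and 0.153, 0.0843 to 0.259), where K303R had 98 and 85. With E2 the lowest was at chr2:123051498-123052062, 974 kb from CNTNAP5, with 17 and 30 fragments in Y537S and 87 and 66 in WT (0.185, 0.103 to 0.314, with E2). A region 271 kb from IRF8 (chr16:86193480-86194311) had 23 and 11 in Y537S and 54 and 74 in WT. Chromosome 6 held 58 of the 360 regions called lower with E2 and 65 of the 381 without, but 6.86% of the well-covered gene-desert regions. The other regions of chromosome 6 were low in Y537S too: the median log2 ratio to WT was −0.43 with E2 and −0.49 without at its gene-desert regions, and −0.32 and −0.33 at its other regions. Chromosome 2 held 28 of the 113 called higher with E2 and 37 of the 149 without, against 12.1%. It also held 45 of the 360 called lower with E2 and 37 of the 381 without. Its median log2 ratio of Y537S to WT was −0.014 with E2 and 0.025 without at gene-desert regions, and 0.041 and 0.049 at other regions.

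Few gene-desert regions were called between the libraries with and without E2. The median log2 ratio of E2 to no E2 was −0.01 in Y537S, −0.06 in K303R and −0.02 in WT, below 0 in 3 of 3 lines (exact 2-sided sign-flip p = 0.25, the smallest possible). In Y537S, 2 regions were higher and 4 lower with E2, against 0.0945% and 0.0732% of all 32800 regions. In K303R, 32 (1.06%) were higher, against 2.49% of all, and 36 (1.19%) were lower, against 0.808%. In WT, 25 (0.824%) were higher, against 1.67% of all, and 25 were lower, against 0.613%. Scaling by the lowest local background moved the median of all regions by −0.01 in Y537S, 0.36 in K303R and 0.09 in WT. The gene-desert medians were then −0.025 in Y537S, 0.31 in K303R and 0.067 in WT. Their sign in K303R and WT thus depends on the scaling. In Y537S 2 were then higher and 6 lower, against 0.0884% and 0.0854% of all. In K303R 261 (8.61%) were higher and 5 (0.165%) lower, against 14.1% and 0.0396% of all, and in WT 47 (1.55%) were higher and 9 (0.297%) lower, against 2.7% and 0.235%. The split in K303R and WT thus depends on the scaling, and the share called higher was below that of all regions under both scalings.

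Higher with E2 in both K303R and WT were 6 gene-desert regions (0.198%, against 0.47% of all), and 1 was lower in both (0.0330%, against 0.0305%). None was called in opposite directions. No gene-desert region was called the same way in Y537S and in another line, and of all regions 0.0061% were higher in both Y537S and WT. In Y537S the 6 had ratios of E2 to no E2 from 0.779 to 0.998. Beside the LINC00299 region printed above (1.95, 1.38 to 2.78, in K303R and 1.65, 1.25 to 2.20, in WT), they included one 462 kb from the cell adhesion gene CADM1 (chr11:115965869-115966700). It had 71 and 80 fragments in Y537S, 84 and 31 in K303R and 137 and 79 in WT, with and without E2, with ratios of 2.25 (1.47 to 3.51) in K303R and 1.71 (1.29 to 2.29) in WT. A region 228 kb from MEX3B (chr15:81813049-81813528) had 126 and 128 in Y537S, 74 and 28 in K303R and 111 and 61 in WT. The largest ratio in K303R was 269 kb from UACA (chr15:70384941-70385489), with 47 fragments with E2 and 12 without (3.25, 1.696 to 6.73). The largest in WT was 247 kb from C8orf90 (chr8:141765509-141766185), with 88 fragments with E2 and 32 without (2.71, 1.79 to 4.21). Y537S had 56 and 25 there and K303R 75 and 33, with ratios of 1.99 and 1.88 that were not called.

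The 5 regions farthest from any protein-coding gene were weak, as most gene-desert peaks were. All 5 lay between the protocadherin gene PCDH7 and ARAP2 on chromosome 4, 2336 to 2413 kb from the nearer gene. The farthest, chr4:33559811-33560041, was listed only in WT with E2, with 12 fragments. Only 1 of the 5 was in all 6 lists (chr4:33482665-33483192), with 18 and 23 fragments in Y537S, 11 and 18 in K303R and 33 and 49 in WT, with and without E2. A region of the same interval 2113 kb from ARAP2, chr4:33891598-33892239, was stronger, with 139 and 134 fragments in Y537S, 66 and 63 in K303R and 152 and 124 in WT. The interval of 4.86 Mb had 128 gene-desert regions, 11 of them well covered, and its median log2 ratio of K303R to WT was −0.63 with E2 and −0.64 without.

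Among the intervals, 27 held 100 or more gene-desert regions each, and 3645 in all. These are long intervals picked by their counts, a choice that also favours dense ones. Per Mb beyond 200 kb from both flanking genes they held 28.7 (PCDH7 to ARAP2) to 138 (CDH11 to CDH5), with a median of 50.4. All deserts together held 32.1. The interval with most lay between TENM4 and FAM181B on chromosome 11, with 221 regions over 3.29 Mb, of which 26 were well covered. Its median log2 ratio to WT was −0.37 and −0.40 in Y537S and −0.68 and −0.52 in K303R, with and without E2. Between the tumour suppressor gene CDC73 and the potassium channel gene KCNT2 on chromosome 1 were 216 regions, with −0.23 and −0.31 in Y537S and −0.74 and −0.55 in K303R. Between VRK1 and BCL11B, a lymphoid and neuronal transcription factor gene, on chromosome 14 were 202, with −0.05 and 0.01 in Y537S and −0.27 and −0.31 in K303R. The next 3, beside PIK3C3, the ephrin gene EFNA5 and IGFBP7, held 190, 165 and 159. The interval from MYC to GSDMC held 156, with K303R at 0.03 and 0.10, below the 0.17 and 0.20 of the other regions of chromosome 8. Among intervals with 20 or more well-covered regions, RPS24 to ZMIZ1 had the highest K303R medians, 0.21 and 0.12. Of 94 intervals with 10 or more well-covered regions, 83 had a median below 0 in K303R with E2 and 81 without. In Y537S 67 had one below 0 with E2 and 68 without. Among these 94, the lowest K303R medians were between LOC124903401 and the adhesion gene FLRT2, at −1.20 and −1.19. The highest among these 94 were 0.32 with E2, between KCNU1 and ZNF703, and 0.41 without E2, between TRPS1 and EIF3H.

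Gene lists were set against the intervals by asking which genes flank one that holds a gene-desert region. The lists were chosen partly because such genes are known to border deserts, so the counts describe the neighbourhood and are no independent evidence. Of all protein-coding genes, 1284 of 19126 (6.71%) flank such an interval. Of 20 breast, estrogen and luminal genes, 16 did, among them MYC, TBX3, KLF4, IRS1, RUNX1, SOX9, TOX3 and NRIP1. Beside TBX3, a mammary development gene, 89 regions lay, and the strongest had 231 and 193 fragments in Y537S, 164 and 131 in K303R and 224 and 197 in WT, each with and then without E2. Beside IRS1, an insulin and IGF signalling adaptor gene, the strongest of 52 had 276 and 234 in Y537S, 212 and 198 in K303R and 237 and 239 in WT. Beside MECOM, the strongest of 30 had 257 and 260, 275 and 268, and 307 and 302 in the same libraries. Of 40 developmental transcription factor genes, 29 flanked such an interval, among them BCL11B, NR2F2 with 139 regions and SOX11 with 113. Of 25 cadherin and neuronal adhesion genes, 22 did, led by CDH11 with 214 regions and CDH8 with 179. A region between neighbouring listed genes is counted for each of them, so such counts can share regions. The strongest beside CDH11 had 243 and 217 in Y537S, 228 and 180 in K303R and 260 and 259 in WT. Beside CDH9 it had 169 and 156 in Y537S, 55 and 41 in K303R and 114 and 108 in WT, with Y537S highest and K303R lowest. Of 18 housekeeping genes matched, 0 flanked such an interval.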

How the data were processed

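The authors' 6 peak lists were used, 1 per library. Per the submitters' processing notes, the tools were MACS2, bedtools, Bowtie2, Picard and SAMtools and the build hg38, without versions or roles. The sources used here state no control library, threshold or read filter. For each deposited peak there is a summit position, a score, a fold enrichment (the ratio of signal to local background) and the −log10 of a p-value and of a q-value. The deposited score was not used. Summit fragments and local background were solved from the deposited fold (pseudocount 1) and −log10 p-value of a Poisson model; p was matched within 0.01% for 100% of peaks in each list. This step was tested on simulated data.

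Peaks were merged at 1 bp overlap and set against protein-coding spans of RefSeq (GRCh38.p14). Groups came from the sample titles. Medians and shares were compared with exact sign-flip and permutation tests over libraries and lines, in Python 3.11.15, NumPy 2.4.6, SciPy 1.17.1 and pandas 2.3.3. Depth is not given, and the number of summit fragments sets the precision of each ratio. A region was named when it was among the 10 with most fragments, the 4 largest called changes either way per comparison, the 5 farthest from genes, the top 2 of a membership class, or in the 6 fullest intervals; the members, gene lists and tests were chosen with earlier results of these data known, and promoter windows were picked after their values were seen. The planned motif search at summits was not run because no genome was used here; promoter windows were searched instead. Exon, intron and untranslated positions were not analysed here.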

Additional observations from a re-analysis of the deposited data

How the results depend on the processing

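Replicates could not be paired across groups, because each group has 1 library and the groups share only 1 replicate number, given in accession order. The pairs of libraries with and without E2 within a line enter the sign-flip test of E2 (exact p = 0.25). The number of gene-desert regions was 33743 at over 100 kb, 8233 at over 500 kb and 2636 when lncRNA spans were counted as genes. Measured by the deposited fold enrichment, the difference in summit signal from all other regions was 0.018 in log2, against −0.32 for fragments; by construction the fold divides by the background, which was lower in deserts. The gap between gene-desert and other regions in the median log2 ratio moved under these settings, with the sign kept except at a value of 0, and the cause was not tested. Within 5 Mb windows it was −0.0021 for E2 in Y537S, −0.0060 for E2 in K303R, 0 for E2 in WT, −0.074 and −0.076 for Y537S over WT with and without E2, and −0.19 and −0.17 for K303R over WT. With a minimum mean of 20 fragments it was −0.077 for E2 in K303R, −0.19 and −0.21 for Y537S, and −0.41 for K303R with E2. With 100 fragments it was −0.038 for E2 in K303R, −0.0031 for E2 in WT, −0.070 and −0.074 for Y537S, and −0.25 and −0.24 for K303R. At over 100 kb it was −0.30 and −0.28 for K303R. At over 500 kb it was −0.082 for E2 in K303R, −0.031 for E2 in WT, −0.19 for Y537S without E2, and −0.49 and −0.43 for K303R. The listed share, −5.96 percentage points against other regions, was −9.31 without the WT line and −3.22 without the K303R line. E2 in WT was −0.0066 at over 100 kb, E2 in Y537S −0.0077 with 100 fragments, and the summit difference −0.20 by deposited −log10 p. The remaining values other than shares called kept their direction and moved by less than 1.5 times. Shares of regions called moved by more under some settings. For E2 in WT, 0.824% were called higher, but 0.264% at 2-fold, 0.416% with 100 fragments and 0.102% at over 500 kb. The share called lower was also 0.824%, but 0.132%, 0.166% and 0.921% under these settings. Shares of all regions under these settings are not given here. Of 54 calls at named regions, 50 held at 2-fold, 52 within 5 Mb windows and 51 scaled by the lowest background, and none turned round. Many of these regions were named for the largest called changes. That choice favours calls that hold, so these counts do not describe smaller calls. Regions under 50 fragments gave no ratio, so changes at weak gene-desert regions are seen only through listing.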
